A study of Drosophila melanogaster with 6 samples.

Results

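The 10 genes described here encode transcription factors that set the fates of outer, R7 and R8 photoreceptors, and they were taken by FlyBase symbol from a count table of 17558 genes. All 10 were found (*svp*, *ro*, *B-H1*, *B-H2*, *dve*, *pros*, *ss*, *salm*, *salr* and *sens*), and 9 of them passed the filter on low counts that left 10378 genes for testing. The samples came from heads of male flies aged 10 days after eclosion, from 3 biological replicates, each split into a sample taken before and one taken after nuclei were isolated. All flies carried UAS-GFP-Msp300KASH at attP2 together with rh1-GAL4, in a *w* and *ry* mutant background, so that the driver's own cells bore GFP on the nuclear membrane. Pre-isolation samples are total RNA of the head homogenate, and post-isolation samples are RNA of the nuclei pulled down with GFP antibody. The Rh1 promoter marks outer photoreceptors, the study describes activity of the driver in antennae as well, and each sample pooled many flies. The 2 groups therefore differ in cell type and in cell compartment, which cannot be told apart in these data.

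Each ommatidium of the fly eye holds 8 photoreceptors. The outer cells, R1 to R6, express the rhodopsin Rh1, whereas the inner cells R7 and R8 express Rh3 or Rh4 and Rh5 or Rh6. During development these fates are set by a small network of transcription factors. Seven-up (*svp*), Rough (*ro*) and the Bar proteins (*B-H1*, *B-H2*) act in subsets of outer cells, Prospero (*pros*) and Spineless (*ss*) in R7, Senseless (*sens*) in R8, and the Spalt proteins (*salm*, *salr*) in both inner cells. Defective proventriculus (*dve*) acts in outer cells, where it keeps inner rhodopsin genes off, and in the R7 cells that Spineless commits to Rh4. Several of these factors persist in adult photoreceptors and control which rhodopsin gene is read, and most of them are also used in other tissues.

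Gene counts summed to between 9999540 and 14522962 per sample. The 8 pan-photoreceptor markers (*chp*, *trp*, *trpl*, *ninaC*, *inaD*, *norpA*, *rdgA* and *gl*) together had a counts-per-million value (CPM, scaled with TMM factors) between 13578 and 13766 in pre-isolation samples and between 58116 and 94805 in post-isolation samples, with the lowest post-isolation value in replicate 3. All 8 were post-enriched, with log2 fold changes from 1.68 to 3.33, and 7 of the 8 were with library size alone, where *ninaC* lost its call. A gene is post-enriched or post-reduced where glmTreat in edgeR, set to a 2-fold change, gives it a Benjamini-Hochberg FDR below 0.05 over all tested genes. Summed marker levels were lower after isolation for 6 glial genes (2093 to 2235 before, 969 to 1325 after), 5 optic lobe neuron genes (86.5 to 95.6 before, 44.4 to 65.1 after), 7 cone and pigment cell genes (2134 to 2283 before, 937 to 1126 after) and 4 head fat body genes (8529 to 9934 before, 2758 to 4401 after). The cone and pigment cell sum consists mostly of *Pdh* (1630.3 ± 96.1 CPM before, 579 ± 43.2 after, SD, n = 3), while *Crys*, *sv* and *pinta* had log2 fold changes of 0.42, 0.53 and 0.31, and the median of that list was 0.01. The sum of 7 markers of the Johnston's organ, the hearing organ of the antenna, was higher after isolation (35.2 to 46.4 before, 60.5 to 70.6 after). Of these other cell types' markers, *nan* was at 0 in every post-isolation sample, and *iav*, *cn* and *fit* were at 0 in some samples. The part of these differences in the results below was not tested.

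Before isolation the 10 factors differed widely in level per exon length, and after isolation *dve* stood second to *pros*. All levels in this paragraph are CPM per kb of merged exons (mean ± SD, n = 3). *pros* had by far the most signal in the head, 136 ± 3.39, which placed it at the 96.8 percentile of tested genes. It was followed by *svp* at 11.0 ± 1.07, *salr* at 8.21 ± 0.810, *dve* at 7.65 ± 0.830, *salm* at 4.52 ± 0.606, *B-H2* at 2.90 ± 0.0677 and *B-H1* at 2.61 ± 0.341. *ss*, *sens* and *ro* lay at the bottom, at 0.801 ± 0.207, 0.298 ± 0.124 and 0.255 ± 0.389. In that order the samples of *salr* and *dve*, of *B-H2* and *B-H1*, and of *sens* and *ro* overlapped, and the other neighbors did not. In post-isolation samples *pros* stood at 60.2 ± 17.1 and *dve* at 33.6 ± 6.49, the latter at the 82.9 percentile of tested genes against 43.4 before. *salr* followed at 14.2 ± 1.97. *salm* (7.08 ± 1.04), *svp* (5.41 ± 1.30), *B-H2* (4.26 ± 0.674) and *B-H1* (4.14 ± 0.534) came next, and neighbors among these 4 overlapped. *ss* (1.43 ± 0.466), *sens* (0.681 ± 0.347) and *ro* (0.534 ± 0.372) lay below them without overlap with *B-H1*, and among these 3 the neighbors overlapped.

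**Figure D1:**
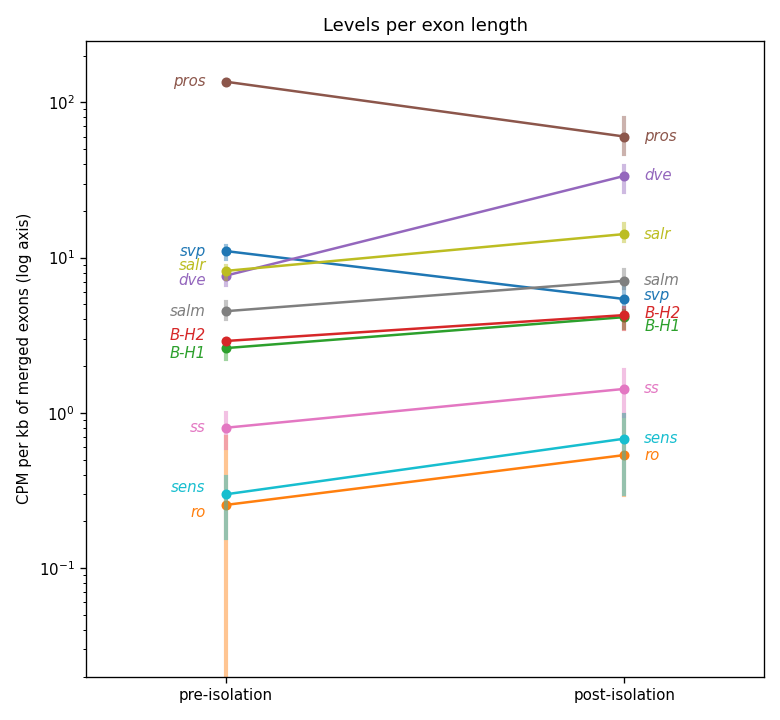
Mean CPM per kb of merged exons (log axis) of the 10 factors before and after isolation, with vertical bars for the lowest and highest of 3 samples. *dve* goes from 7.65 to 33.6, the means of *pros* and *svp* are lower after isolation, and the pre-isolation bar of *ro* runs off the axis because 1 sample had a count of 0.

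Of the 9 factors tested, 1 was post-enriched (*dve*) and none was post-reduced. Among all tested genes, 7.29% were post-enriched and 4.89% post-reduced. No factor had an unadjusted p below 0.05 in the direction of loss, where the lowest p in edgeR's glmTreat was 0.0571 for *pros*. That p was 0.0359 with the replicate block, 0.0354 with no filter and 0.0415 on the authors' filtered table, and the adjusted p stayed above 0.05 in these 3 fits (FDR = 0.201, 0.251 and 0.185). DESeq2 also called 1 factor higher and 0 lower. In bulk samples like these, fewer cells of a type and less RNA per cell cannot be told apart. Against no change rather than a 2-fold change, the quasi-likelihood F test in edgeR called 3 factors higher (*dve*, *salr*, *salm*) and 2 lower (*pros*, *svp*) at an FDR of 0.05, where the background was 24.4% of all genes higher and 26.1% lower. Samples of the 2 groups did not overlap for 5 factors that were higher after isolation and 2 that were lower, against 28.0% and 30.1% of all genes. The median log2 fold change of the 9 factors was 0.66, and that of all genes was -0.07. With counts scaled by library size alone, the median of all genes moved to -0.51, a shift of -0.45, and the 9 factors kept their signs.

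**Figure D2:**
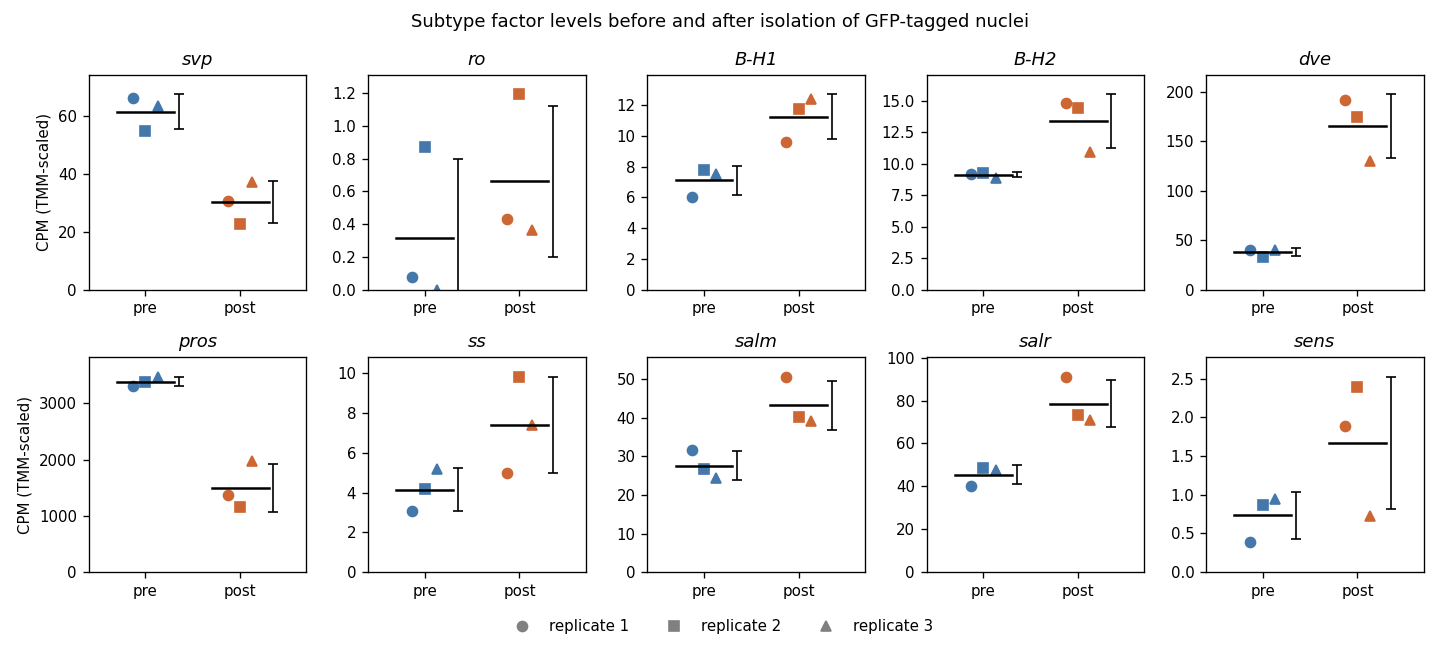
TMM-scaled CPM of each factor in the 3 pre-isolation and 3 post-isolation samples, with symbols for the replicate, a line at the mean and a bar of 1 SD (cut at 0). Every panel has its own axis from 0. For *dve* the post-isolation samples (130.0 to 192) lie above the pre-isolation samples (33.0 to 40.1), and for *pros* and *svp* they lie below.

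*dve* (FBgn0020307) was the factor with a clear gain. The gene lies on 2R from 22243963 to 22286469 and has 7 merged exons, and its homeodomain protein represses *Rh3*, *Rh5* and *Rh6* in outer photoreceptors. Replicates 1 to 3 read 40.1, 33.0 and 40.0 CPM before isolation and 192, 175 and 130.0 CPM after it. All samples taken after isolation exceeded all those taken before, and the lowest of them was replicate 3, which also had the lowest sum of photoreceptor markers. The level was 4.39-fold higher, which is 2.14 on the log2 scale with an SE of 0.16 (glmTreat in edgeR, Benjamini-Hochberg FDR = 1.37e-05). The value placed *dve* above 95.8% of tested genes. Without post-isolation replicate 3 it was 2.34, and it stayed post-enriched under each of the 16 other settings, with values between 1.68 and 2.34. Among these settings, both tests against no change reuse the same fitted values, so the call could not be lost there.

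*svp* (FBgn0003651), on 3R from 12258737 to 12302785 with 6 merged exons, encodes an orphan nuclear receptor that keeps R1, R3, R4 and R6 from taking the R7 fate. In contrast to *dve*, its CPM was lower after isolation. Replicates 1 to 3 read 66.3, 54.9 and 63.7 before isolation and 30.5, 22.9 and 37.4 after it. The groups did not overlap, and the highest post-isolation value was that of replicate 3. The log2 fold change came to -1.03 with a 95% interval from -1.40 to -0.65. It passed the F test against no change (edgeR, Benjamini-Hochberg FDR = 2e-04) but not the 2-fold threshold of glmTreat (FDR = 0.733). With library size alone the value was -1.46 and *svp* was post-reduced (FDR = 0.0345), in a fit that called 12.1% of all genes post-reduced. The gene spans 7 others on its own strand, of which *CG44037* shares 115 bp of exon with it, and a read in the shared bases would have been assigned to neither gene.

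*B-H1* and *B-H2*, a pair of homeobox genes used in R1 and R6 and in the primary pigment cells, had low levels that were somewhat higher after isolation. *B-H2* (FBgn0004854) lies on X from 17314581 to 17324175 and *B-H1* (FBgn0011758) on X from 17397478 to 17403278, 73.3 kb apart on the same strand, and a read that fitted both would have been counted for neither. In replicates 1 to 3 *B-H1* read 6.05, 7.78 and 7.51 CPM before and 9.63, 11.8 and 12.4 CPM after isolation. The CPM of *B-H2* was 9.19, 9.28 and 8.88 before and 14.8, 14.4 and 11.0 after isolation. The groups did not overlap for either of these genes. The log2 fold changes were 0.66 (SE 0.27) for *B-H1* and 0.55 (SE 0.24) for *B-H2*, neither of which passed glmTreat (edgeR, Benjamini-Hochberg FDR = 1.00 each) or the F test against no change (FDR = 0.0513 and 0.0712). With library size alone the groups overlapped for both genes, at log2 fold changes of 0.22 and 0.10.

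*ro* (FBgn0003267), on 3R from 26876771 to 26881171, encodes the homeodomain protein that represses *sens* in R2 and R5, and it was close to undetected. Replicates 1 to 3 had 1, 11 and 0 counts before isolation and 5, 13 and 4 counts after it. Only 1 sample was above 1 CPM, so the gene was not tested. Replicate 2 gave most of the counts in both groups. The sums were 12 counts before (95% Poisson interval 6.20 to 21.0) and 22 after isolation (13.8 to 33.3). These intervals cover counting error only and are no test of a difference. In the fit with no filter the log2 fold change of *ro* was 0.99988 (glmTreat in edgeR, unadjusted p = 0.477).

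*pros* (FBgn0004595), on 3R from 11328480 to 11407627, encodes the homeodomain protein that represses *Rh5* and *Rh6* in R7, and it is also used in cone cells and in the divisions of neural precursors. It was the most abundant of the 10 factors in both groups, and its level was lower after isolation. Replicates 1 to 3 read 3298, 3382 and 3466 CPM before isolation and 1374, 1150.0 and 1975 CPM after it. The groups did not overlap, and the post-isolation replicate nearest to the head samples was again replicate 3. The log2 fold change came to -1.17 with a 95% interval from -1.54 to -0.80. As for *svp*, it passed the F test against no change (edgeR, Benjamini-Hochberg FDR = 5.02e-05) but not glmTreat (FDR = 0.287). Leaving out post-isolation replicate 3 gave -1.37, and *pros* was then post-reduced (FDR = 0.000163), in a fit that called 7.16% of all genes post-reduced. With library size alone it was post-reduced as well, at -1.60 (FDR = 0.00999). Its merged exons add up to 24.9 kb, the longest of the 10 factors.

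*ss* (FBgn0003513), on 3R from 16374434 to 16403690, encodes the PAS-domain factor that turns on in a random subset of R7 cells and commits them to Rh4. It had 40, 53 and 61 counts before and 58, 107 and 81 counts after isolation. In CPM these were 3.06, 4.21 and 5.21 before and 4.99, 9.83 and 7.39 after isolation. Post-isolation replicate 1 lay below pre-isolation replicate 3, so the groups overlapped. The log2 fold change of 0.83, with a 95% interval from 0.05 to 1.62, passed neither glmTreat (edgeR, Benjamini-Hochberg FDR = 1.00) nor the F test against no change (FDR = 0.0731). The gene of its dimer partner Tango, *tgo*, averaged 55.7 ± 9.04 CPM before and 58.0 ± 2.90 CPM after isolation (n = 3, SD).

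The Spalt genes *salm* and *salr* encode zinc finger proteins that set R7 and R8 apart from outer cells and keep *dve* off in most inner cells. They lie on opposite strands of 2L, *salr* (FBgn0000287) from 11358873 to 11373636 and *salm* (FBgn0261648) from 11434311 to 11445614, with 60.7 kb between them. Both were higher after isolation by less than 2-fold. Replicates 1 to 3 of *salm* read 31.7, 26.7 and 24.5 CPM before and 50.6, 40.2 and 39.1 CPM after isolation. Those of *salr* read 40.3, 48.6 and 47.5 before and 91.0, 73.2 and 71.2 CPM after isolation. The groups did not overlap for either gene, and post-isolation replicate 1 was the highest for both. The log2 fold changes were 0.65 (SE 0.17) for *salm* and 0.79 (SE 0.15) for *salr*. Both passed the F test against no change (edgeR, Benjamini-Hochberg FDR = 0.0052 and 0.000406) and neither passed glmTreat (FDR = 1.00 each). With library size alone the values were 0.20 and 0.34, and the samples of *salm* overlapped between groups.

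*sens* (FBgn0002573), on 3L from 13396228 to 13401125, encodes the zinc finger protein required for the R8 fate, which also represses R7 rhodopsins in R8. It was barely detected, with 5, 11 and 11 counts before and 22, 26 and 8 counts after isolation. It passed the filter, which used CPM without TMM factors, with 4 samples above 1, 2 in each group, by the smallest margin of the 9 factors. In post-isolation replicates 1 and 2 the TMM-scaled CPM was 1.89 and 2.39, above every pre-isolation sample (0.383 to 0.939), whereas in replicate 3 it was 0.730. The log2 fold change of 1.20 had an SE of 0.70 and a 95% interval from -0.29 to 2.69, and did not pass the F test against no change (edgeR, Benjamini-Hochberg FDR = 0.172). At this depth neither a gain of several fold nor no change lies outside the interval.

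**Figure D3:**
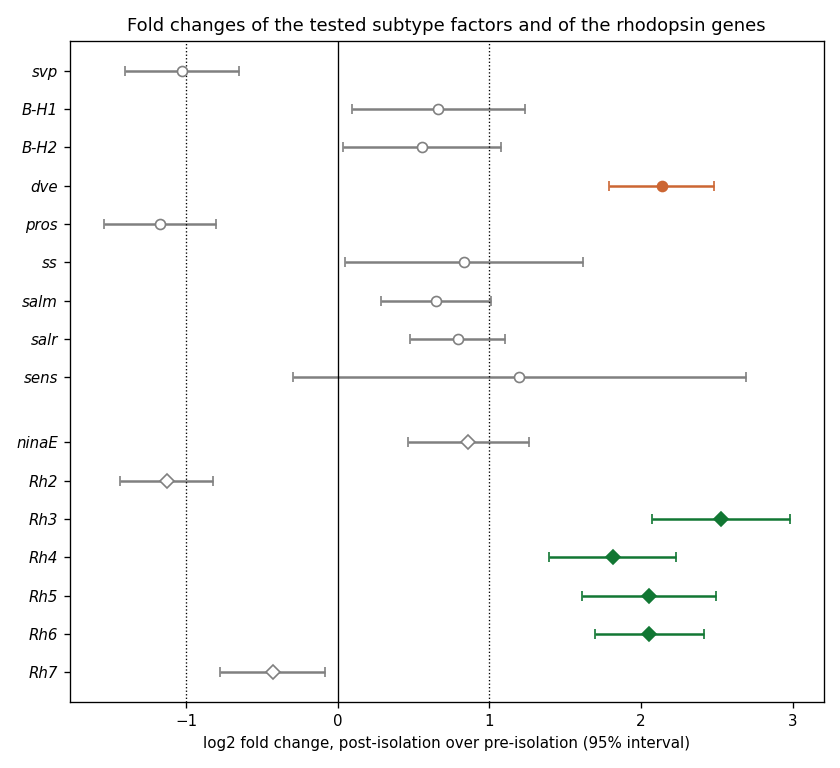
Log2 fold changes (post-isolation over pre-isolation, with 95% intervals, 3 samples a group) of the 9 tested factors (circles) and the 7 rhodopsin genes (diamonds), with dotted lines at a 2-fold change. Filled symbols are post-enriched. *dve* at 2.14 lies between *Rh5* and *Rh6* (2.05 each) and *Rh3* (2.53), and *pros* (-1.17) and *svp* (-1.03) lie on either side of *Rh2* (-1.13).

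Within each sample the factors were also set against the summed counts of the pan-photoreceptor markers, a ratio that needs no scaling between samples. Of these markers, the study describes expression of *trp*, *trpl* and *inaD* in the hearing organ as well. The ratio of *dve* changed least among the 9 tested factors, by -0.37 on the log2 scale between group means, from -8.50 ± 0.16 to -8.87 ± 0.07 (SD, n = 3). The differences were -1.71 for *salr*, -1.84 for *salm*, -1.83 for *B-H1*, -1.95 for *B-H2*, -1.68 for *ss* and -1.40 for *sens*. The lowest among the 9 were those of *pros* (-3.70) and *svp* (-3.54). For *pros* the post-isolation values were -6.11, -6.15 and -4.88 in replicates 1 to 3, so that replicate 3 stood apart from the others. For each of these 9 ratios the groups did not overlap, a count whose share over all tested genes was not computed. The marker sum itself was higher after isolation (13578 to 13766 CPM before, 58116 to 94805 after). A gene that gained less than these markers therefore falls in this ratio, and the share of all tested genes that do so was not computed. A two-sided exact permutation test, which shuffled all 6 samples without regard to replicate, gave p = 0.1 (adjusted p = 0.136 over 15 ratios). That p is the lowest possible with 3 samples a group. Between factors, the log2 ratio of *ss* to *dve* differed by -1.31 and that of *pros* to *sens* by -2.30, with the same p-values. The ratio of *svp* to *pros* differed by 0.16, from -5.78 ± 0.16 to -5.62 ± 0.12 (exact permutation p = 0.3, adjusted p = 0.375), and the samples of the groups overlapped.

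**Figure D4:**
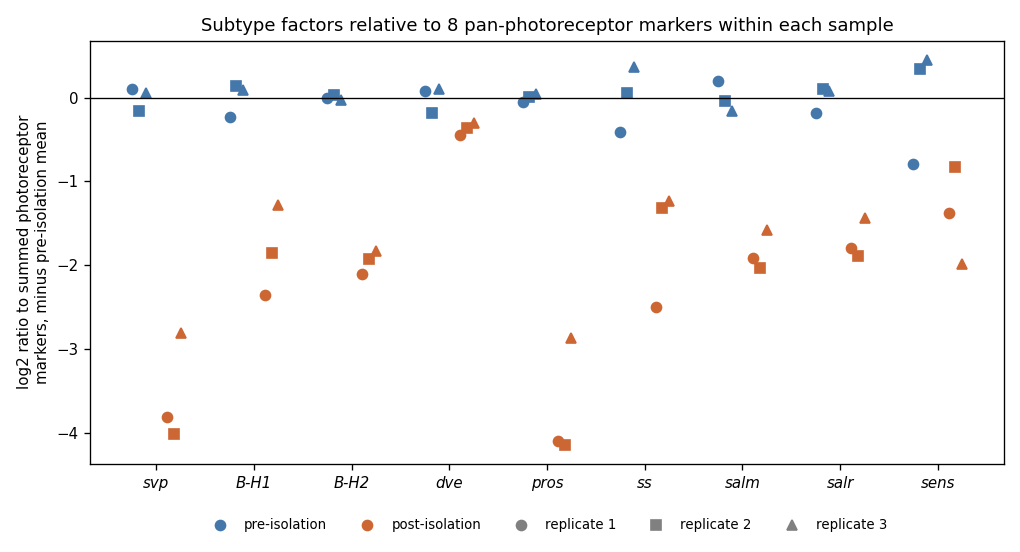
Log2 ratio of each tested factor to the summed counts of 8 pan-photoreceptor markers in the same sample, minus the pre-isolation mean, for 3 samples a group. All post-isolation points lie below their pre-isolation points, and the marker sum itself was higher after isolation. The share of all tested genes that do so was not computed. *dve* lies within 0.5 of 0, and *pros* and *svp* lie lowest, with means of -3.70 and -3.54.

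The rhodopsin genes are the best known targets of these factors. Of 7 tested, 4 were post-enriched, 0 were post-reduced (0 also by unadjusted p below 0.05 and by DESeq2), and the median log2 fold change was 1.81. The 4 are the inner rhodopsins *Rh3* (2.53), *Rh4* (1.81), *Rh5* (2.05) and *Rh6* (2.05). Of all tested genes, 7.29% were post-enriched and 4.89% post-reduced. *ninaE*, which encodes Rh1, stood at 0.86 and was not called (glmTreat in edgeR, Benjamini-Hochberg FDR = 1.00). *Rh2*, the rhodopsin of the ocelli, the simple eyes on top of the head, averaged 191 ± 3.78 CPM before and 87.2 ± 18.9 CPM after isolation (n = 3, SD). Its log2 value of -1.13 was not called either (FDR = 0.333). *Rh7* stood at -0.43 (FDR = 1.00). Against no change, *ninaE*, *Rh2* and *Rh7* passed the F test (edgeR, Benjamini-Hochberg FDR = 0.00139, 1.28e-05 and 0.037). With library size alone and without post-isolation replicate 3, 1 rhodopsin gene was post-reduced. *Rh3*, *Rh5* and *Rh6*, which Dve represses in outer cells, were thus post-enriched together with *dve* itself. The study attributes the gain of R7 and R8 rhodopsins to driver activity in mechanosensory neurons of the antenna. Which cells held these transcripts was not tested here.

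Of 20 further regulators of photoreceptor subtype, 4 were post-enriched and 0 post-reduced, with a median log2 fold change of 0.10. *oc* and *Pph13* encode homeodomain activators of rhodopsin genes. *oc*, whose product Orthodenticle activates *Rh3* and *Rh5*, went from 99.3 ± 7.49 to 636 ± 170.3 CPM (n = 3, SD). Its log2 fold change was 2.68 ± 0.18 (SE), with a Benjamini-Hochberg FDR of 1.11e-06 in glmTreat of edgeR. *Pph13* went from 42.7 ± 7.17 to 188 ± 21.9 CPM, or 2.14 on the log2 scale (FDR = 6.19e-06). The others belong to the Hippo pathway, whose kinase Warts sets the choice between Rh5 and Rh6 in R8. *kibra* rose by 1.42 in log2 fold change (FDR = 0.00594) and lost its call with library size alone. *wts* rose by 1.32 (FDR = 0.0447), close to the threshold, and was called in 6 of 16 other settings. Those 6 include both tests against no change, which reuse the same fitted values. The other Hippo pathway genes of the list were not called, with log2 fold changes of -0.01 for *hpo*, 0.05 for *sav*, 0.09 for *mats*, 0.02 for *Mer*, -0.42 for *yki* and 0.51 for *sd*. The antagonist of *wts* in that switch, *melt*, stood at 0.28 with an SE of 0.30 (FDR = 1.00). Among those not called, the highest value was that of *ara*, 0.73, a gene of the Iroquois complex that marks dorsal R7 cells, and the lowest that of *hth*, -1.32 (FDR = 0.0614). Homothorax, the product of *hth*, specifies the inner cells of the dorsal rim. With the replicate block *hth* was post-reduced (FDR = 0.0327), and it was the 1 gene of the list with an unadjusted p below 0.05 in that direction. It also passed the F test against no change (edgeR, Benjamini-Hochberg FDR = 7.52e-06). The list had 1 post-reduced gene as well with library size alone, with no filter, on the authors' filtered table and without post-isolation replicate 3. DESeq2 called 3 of the 20 higher and 0 lower.

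Of 15 tested genes that act earlier, when photoreceptors are recruited, 1 was post-enriched and 1 post-reduced, which is near the share among all genes (7.29% and 4.89%). Their median log2 fold change was 0.00. *boss*, which encodes the ligand that R8 presents to induce R7, went from 250.1 ± 15.6 to 1393 ± 368 CPM (n = 3, SD), or 2.48 on the log2 scale (glmTreat in edgeR, Benjamini-Hochberg FDR = 2.41e-06). Its receptor gene *sev* averaged 114 ± 5.69 CPM before and 114 ± 25.0 CPM after isolation. *phyl*, which promotes the breakdown of the repressor Tramtrack in R7, went from 56.5 ± 8.84 to 14.5 ± 1.94 CPM, or -1.96 on the log2 scale (FDR = 0.000238). *ttk*, which encodes Tramtrack, had the highest value among those not called, 1.27 (FDR = 0.0553), and *pnt* the lowest, -0.88. In the F test against no change *ttk* passed (edgeR, Benjamini-Hochberg FDR = 1.48e-06). The list had 2 post-enriched genes with RLE factors, with 10 counts required in every sample and without post-isolation replicate 3, and 1 with DESeq2. *ato*, the proneural gene of R8, was not tested, with between 0 and 9 counts per sample.

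Of 10 retinal determination and photoreceptor differentiation factors, 3 were post-enriched and 1 was post-reduced, against 7.29% and 4.89% of all tested genes. The list's median was 0.38 on the log2 scale. The zinc finger gene *gl* had a log2 fold change of 2.96, *eyg* of 2.08 and *onecut* of 1.60, and *hbn* of -2.08 (glmTreat in edgeR, Benjamini-Hochberg FDR = 0.0165). *onecut* lost its call with library size alone, and *hbn* lost it with DESeq2 and when pre-isolation replicate 2 or 3 or post-isolation replicate 1 was left out. Not called were *so* at 1.12 and *dac* at -1.23, the highest and lowest of the rest. Both passed the F test against no change (edgeR, Benjamini-Hochberg FDR = 4.18e-06 and 2.32e-05). That test called 6 genes of the list higher and 4 lower, against 24.4% and 26.1% of all genes.

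**Figure D5:**
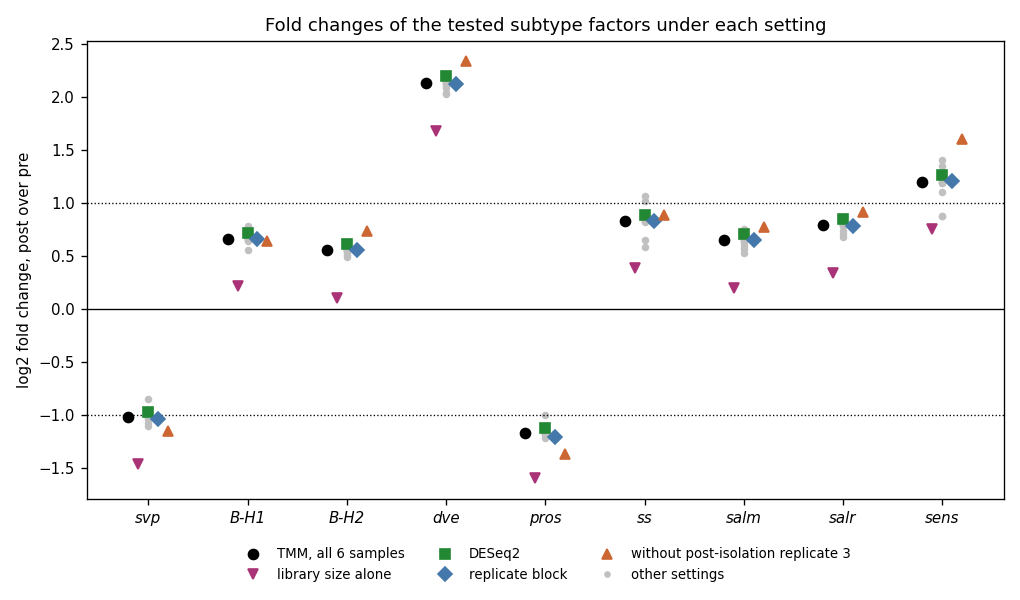
Log2 fold changes (post over pre) of the 9 tested factors with TMM scaling over all 6 samples and under the other settings tried, with dotted lines at a 2-fold change. Library size alone (downward triangles) lowers every value by a similar amount, and no factor crosses 0.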

How the data were processed

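RNA-seq covered 3 samples from before and 3 from after isolation. Trimmomatic, TopHat with Bowtie 2 (BDGP6) and HTSeq in its stranded mode were the authors' tools for single-end reads. The deposited values used here are whole-number counts per gene, without normalization. The deposited filtered counts served for 1 alternative, and the deposited CPM table was not used. The counter's summary lines were left out of library sizes. They record that 86.0% to 91.7% of alignments were not unique and so not counted. Symbols, positions and exon lengths were read from an Ensembl annotation of BDGP6 newer than that of the authors.

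CPM was taken over gene counts, and a gene was tested if 3 or more samples exceeded 1 CPM. TMM factors and tests came from edgeR 4.0.16 in R 4.3.3 (glmQLFit, glmTreat against a fold change of 2, Benjamini-Hochberg FDR of 0.05). The factors separated by group, with 1.16 to 1.17 in pre-isolation samples and 0.802 to 0.938 in post-isolation samples, highest there in replicate 3. SEs were obtained from the F statistics. Ratios within samples had 0.5 added to each count and an exact permutation test over all 6 samples, which did not use the pairing. Other tools were DESeq2 1.42.0, Python 3.11.15, pandas 2.3.3, scipy 1.17.1 and matplotlib 3.10.9.

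Other settings were a replicate block, DESeq2, RLE factors, library size alone, other filters, tests against no change, and leaving out each sample; 14 were planned, and 2 (no condition on the fold change, edgeR's legacy fit) were chosen after seeing the data. The labels number the replicates alike in both groups, and the study writes of respective pre-isolation samples. Same-numbered samples were therefore taken as pairs in the replicate block. Deviations of the pairs from their group means correlated at 0.00933, 0.0476 and -0.0134 across genes. The members and gene lists were chosen with earlier results of these data known. The genes named are the 10 factors, all rhodopsin genes and, of the other lists, each gene called and the highest and lowest of the rest, except for an item that is not reported here. *tgo*, *melt*, *hpo*, *sav*, *mats*, *Mer*, *yki*, *sd*, *sev*, *ato*, *Crys*, *pinta* and the markers at 0 are named beyond this rule and were chosen after their values were seen. Of the 7 optic lobe neuron markers, 5 could be matched to the counts. Poisson intervals cover counting error only. Nothing in the labels names a batch, and p-values measure the spread between these samples.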

Additional observations from a re-analysis of the deposited data

How the results depend on the processing

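Across 16 other settings the 9 tested factors gave 139 values. None changed sign, 130 kept the call, and 9 gained one. Both tests against no change reuse the values of the TMM fit over all 6 samples, so there no sign could change and no call could be lost. The gains were those of *pros* and *svp* with library size alone (-1.60 and -1.46), against no change with a fold change above 2 (-1.17 and -1.03), and against no change alone, where *salm* (0.65) and *salr* (0.79) were called too, and that of *pros* without post-isolation replicate 3 (-1.37). With samples left out in turn the log2 fold changes ran from 2.03 to 2.34 for *dve*, -1.37 to -1.004 for *pros*, -1.15 to -0.85 for *svp*, 0.53 to 0.77 for *salm*, 0.68 to 0.91 for *salr*, 0.55 to 0.78 for *B-H1*, 0.48 to 0.73 for *B-H2*, 0.59 to 1.07 for *ss* and 0.87 to 1.60 for *sens*. The number of factors called lower was 0 by glmTreat in the TMM fit over all 6 samples, and 2 with library size alone. It was also 2 in both tests against no change, which use that same TMM fit, and between 0 and 1 with samples left out. The number called higher was 3 against no change alone and otherwise 1. Over all genes, 757 were post-enriched and 508 post-reduced. These counts were 451 and 1253 with library size alone, 1375 and 1483 against no change with a fold change above 2, 2535 and 2707 against no change alone, 480 post-enriched on the authors' filtered table of 5262 genes, and 278 post-reduced with DESeq2; with samples left out they ran from 555 to 942 and from 345 to 725. The cause was not tested, except that the filtered table holds fewer genes. With the replicate block, 740 and 523 genes were called, and the block changed the call of no subtype factor (*dve* at 2.12, *pros* at -1.21). Among the ratios within samples, 3 changed sign with 1 sample left out: *B-H1* to *B-H2* (0.12, range -0.090 to 0.31, below 0 without post-isolation replicate 3), *salm* to *salr* (-0.14, range -0.25 to 0.052, above 0 without pre-isolation replicate 1) and *ro* to the markers (-0.57, range -1.54 to 0.66, above 0 without pre-isolation replicate 2). Depth limits *ro* and *sens* most, with 0 to 26 counts per sample.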

Other observations

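Both paralog pairs were compared within each sample, where no scaling is needed. The log2 ratio of *B-H1* to *B-H2* counts in replicates 1 to 3 was -0.60, -0.25 and -0.24 before isolation and -0.62, -0.29 and 0.18 after it, a difference of 0.12 between means (two-sided exact permutation test, p = 0.9, adjusted p = 0.964 over 15 ratios). Without post-isolation replicate 3 the difference was -0.090. The log2 ratio of *salm* to *salr* was -0.35, -0.86 and -0.95 before and -0.85, -0.86 and -0.86 after isolation, a difference of -0.14 (exact permutation p = 1.0), and 0.052 without pre-isolation replicate 1. In both ratios the samples of the groups overlapped. The ratio of *ro* to the pan-photoreceptor markers differed by -0.57 on the log2 scale (exact permutation p = 0.8), and by 0.66 without pre-isolation replicate 2.

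Of the markers of other cell types, *Pdh* of pigment cells (-1.49) was post-reduced. Among the genes that were not called, the highest and lowest log2 fold changes were 0.53 (*sv*) and -0.79 (*ct*) for cone and pigment cells (list median 0.01), 0.05 (*tj*) and -1.20 (*erm*) for optic lobe neurons (-1.16), -0.29 (*moody*) and -1.16 (*alrm*) for glia (-0.80), 0.94 (*btv*) and -0.06 (*nompC*) for the Johnston's organ (0.67), and -0.72 (*to*) and -1.36 (*Lsp2*) for the head fat body (-1.35). In glmTreat of edgeR, 0 genes of these lists were post-enriched, with 0 at an unadjusted p below 0.05 and 0 by DESeq2. The glial, Johnston's organ and fat body lists had 0 post-reduced genes, by DESeq2 as well, and of these 2 fat body genes had an unadjusted p below 0.05 in that direction.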
